A study of Mus musculus with 36 samples.

Results

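The potassium channel genes of the mouse were taken as one group, and their DNA methylation was followed in the embryonic brain over Tet1 genotype and maternal folic acid diet. Members were the autosomal protein-coding genes of the GENCODE annotation of GRCm38 (mm10) whose symbol is Kcn followed by lower-case letters and digits only, with 1 gene left out. The rule gave 90 genes of 20807 autosomal protein-coding genes. A gene was tested where its body and the 2 kb on each side held at least 3 CpGs read 5 or more times in every embryo, which left 86 of the 90 members and 16223 of all genes. Kcnj13, Kcnj14, Kcnv1 and Kcnk7 were not tested. The tested members held 3 to 189 such CpGs, with a median of 54.5, and the median number of reads behind the level of a member in an embryo ran from 45 to 5014.

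Potassium channels let potassium ions leave or enter a cell and so set its resting voltage, the shape of its action potentials and its firing rate. Voltage-gated channels are built from pore subunits that open when the membrane depolarises. Electrically silent modulatory subunits join these pores, and small accessory subunits change their gating or their traffic to the cell surface. Inward rectifiers and two-pore channels hold the resting voltage, and calcium- or sodium-activated channels follow the ion content of the cell. TET1 is an enzyme that oxidises 5-methylcytosine, the first step in removing this mark from CpG dinucleotides. Folate feeds the one-carbon cycle that supplies methyl groups.

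The embryos came from the stock 129S6.cg Tet1<tm1Koh>, in which a cassette inserted at the first coding ATG abolishes full-length Tet1. Wild-type (WT), heterozygous (HET) and homozygous (KO) embryos were compared at E11.5, all carried by HET dams on a diet with 30, 3 or 0.1 ppm folic acid, with 3 ppm as the control diet. All 3 diets contained succinylsulfathiazole, which limits the folate made by gut bacteria, and the allele is carried by every cell of a KO embryo and not by the brain alone. Each library was the brain of 1 embryo, from forebrain to hindbrain, so that a level is a mean over all cell types of this tissue. There were 3 WT, 5 HET and 6 KO embryos on 30 ppm, 4 WT, 3 HET and 5 KO on 3 ppm, and 2 WT, 3 HET and 5 KO on 0.1 ppm, from 4 litters per diet according to the labels. The labels give a neural tube defect (NTD) for 2, 1 and 2 of the KO embryos on 30, 3 and 0.1 ppm and for no WT or HET embryo. Another label, inHB, is carried by 2 HET and 2 KO embryos on 30 ppm, 1 KO embryo on 3 ppm, and 1 WT and 1 KO embryo on 0.1 ppm. The sample list of the study gives a brain malformation for these embryos. The shallowest library, HET replicate 2 on 0.1 ppm, was left out, which left 35 of the 36 embryos. The assay was reduced representation bisulfite sequencing with an oxidation step, so that it reads 5-methylcytosine and not its hydroxylated form. A methylation level is the percent of reads at CpGs that were methylated, and a difference between levels is given in percentage points.

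The 35 libraries held 25648249 to 197322320 CpG calls, a mean coverage of 12.1 to 61.5 reads per CpG. In 3 libraries the methylation of 1 CpG of Tet1 went against the label. The CpG at position 62884019 of chromosome 10, inside Tet1, was chosen after its values were seen as the one of 151 CpGs there that differed most between KO and WT, so that it serves only as a description. Its level was 0 to 7.32% in the other 7 WT libraries, 8.33 to 69.2% in 10 HET libraries, while the 15 remaining KO libraries had 69.6 to 100%. Outside the range of their labelled genotype, and inside that of the HET libraries, stood KO replicate 1 of 30 ppm at 45%, WT replicate 2 of 30 ppm at 36.36% and WT replicate 2 of 0.1 ppm at 40.0%. These 3 levels rest on 20, 33 and 15 reads, and those of the other libraries on as few as 8, so the ranges are coarse. The doubted KO library is labelled KO in the deposited record, while the sample list of the study gives the same embryo as HET. All groups keep the labels as deposited, and the main counts on 30 ppm are given with these libraries and without them, while promoters and distances from the gene start on 30 ppm are given with all libraries alone, so that a KO value on 30 ppm with all libraries includes an embryo of disputed genotype. The doubted libraries were set apart by a CpG chosen for its KO and WT levels in these data. Values without them, calls and adjusted p values included, are therefore descriptions. Such values carry no independent support for a wider difference. KO replicate 1 alone is also questioned by another source.

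In embryos on the control diet, 25 of the 86 tested potassium channel genes were more methylated in KO than in WT and none was less methylated, where a call needed an adjusted p below 0.05 together with at least 5 points between the means. Over all genes tested, 12.4% were called higher. The median difference over the members was 3.75 points, against 1.84 points over all genes, and 81 of the 86 members had a KO mean above the WT mean, as had 87.6% of all genes. On 0.1 ppm, 19 members were called higher and none lower, against 9.22% of all genes, with a median difference of 3.33 points against 1.74. The calls on these 2 diets held 16 genes in common, with 9 called on 3 ppm alone and 3 on 0.1 ppm alone. Without WT replicate 1 of 0.1 ppm, which leaves the doubted library as the only WT embryo of the diet and takes the spread from the KO embryos alone, 9 members were called there (4.65% of all genes), and Kcnab1, Kcne1, Kcns1, Kcnj11 and Kcnn4 were among those no longer called. With WT replicate 1 as the only WT embryo, 21 members were called (10.3% of all genes). The test was a quasi-binomial model of methylated reads with limma's moderated dispersion, adjusted over all genes by the Benjamini-Hochberg method.

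On 30 ppm no member was called with all libraries under their labels, and 1 of 16223 genes was (0.00616%). In this fit 25 members had an unadjusted p under 0.05 (29.1%, against 15.5% of all genes), and the median difference was 2.36 points against 1.28 over all genes. limma on equally weighted CpGs also called no member. A fit in which all groups shared 1 dispersion called 16 members, with no share over all genes given here. The median of 2.36 points moved to 1.27 points without WT replicate 3 and to 4.27 points without the doubted WT replicate 2. Without the library labelled KO replicate 1 there were 15 members called (5.57% of all genes), and without the library labelled WT replicate 2 there were also 15 (8.12% of all genes). Without the doubted libraries of this diet, KO replicate 1 and WT replicate 2, only WT replicates 1 and 3 are left as WT embryos. There 27 members were called higher and none lower, against 15.3% of all genes, with a median difference of 4.64 points against 2.47. Of these 2 WT embryos, replicate 3 had the fewest CpGs read 5 or more times of all libraries (1334883). It also had the lowest median level over all genes, 15.2%, against 17.6% in replicate 1. Its median over the members was 19.7%, against 22.6%, while its mean over all shared CpGs was 31.6%, against 31.2%. The 27 called members included all 16 called on both other diets, which is a description and no independent agreement between diets. The KO mean was above the WT mean on all 3 diets, with every library kept, in 70 of the 86 members. No share over all genes is given for this count. On 30, 3 and 0.1 ppm taken singly, 81.5, 87.6 and 81.6% of all genes had a KO mean above the WT mean.

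**Figure D1:**
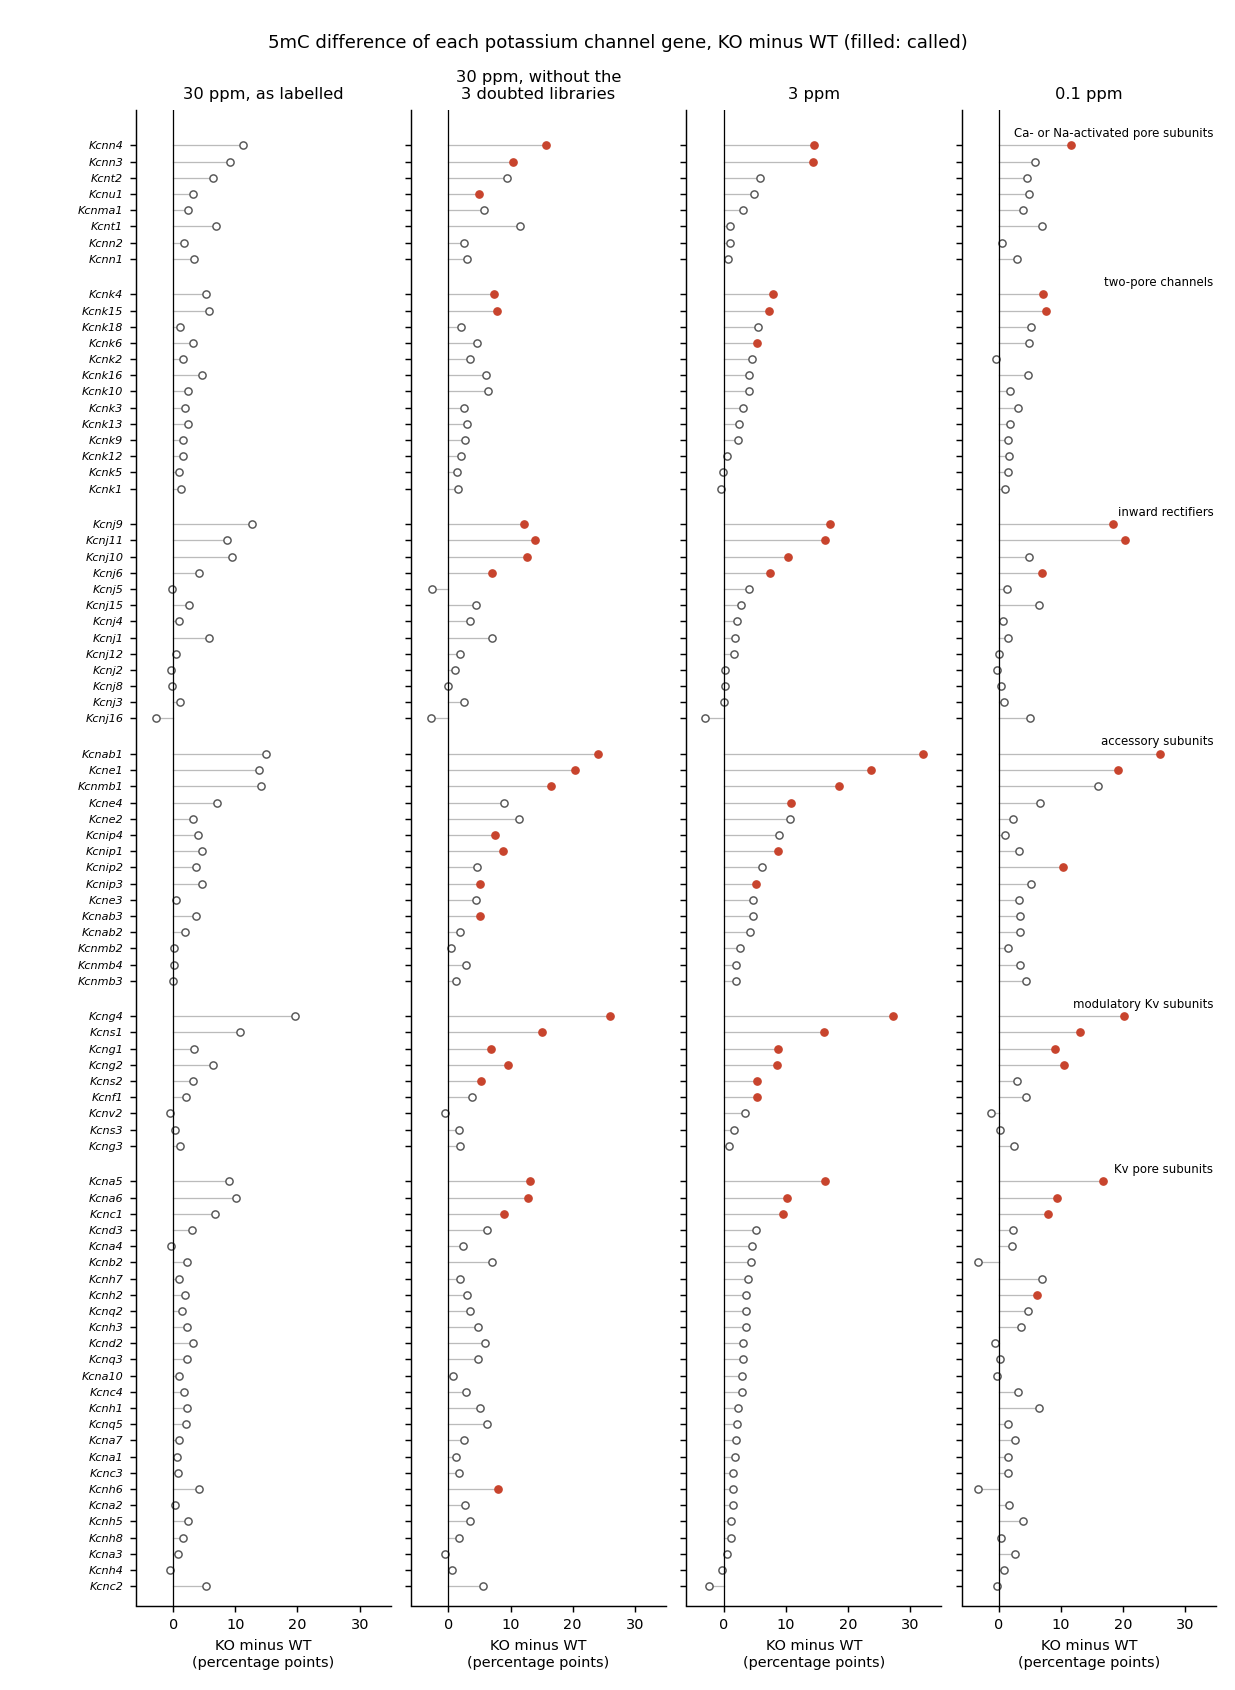
Difference in methylation level between KO and WT embryos for 84 of the 86 tested potassium channel genes, in percentage points, by family. Panels are 30 ppm with all libraries, 30 ppm without the doubted libraries, 3 ppm and 0.1 ppm. Filled points are called genes. The largest differences on 3 ppm over CpGs read at least 5 times belong to Kcnab1 (32.0 points), Kcng4 (27.2 points) and Kcne1 (23.6 points).

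Counting embryos rather than means, every KO embryo lay above every WT embryo in 31 members on 3 ppm, against 20.1% of all genes. On 0.1 ppm this held for 42 members, against 29.7% of all genes. In 1 member every KO embryo lay below every WT embryo there, as in 114 of all 16223 genes. On 30 ppm every KO embryo lay above every WT embryo in 5 members with all libraries (3.85% of all genes). Without the doubted libraries this held for 48 members (36.57% of all genes). There were 4 WT and 5 KO embryos on 3 ppm, 2 and 5 on 0.1 ppm, and 3 and 6 on 30 ppm with all libraries. Full separation is easier to reach with fewer embryos, so these counts cannot be set against each other between diets or settings. Combining the diets in 1 model, 23 members were called higher, against 13.9% of all genes. Without the doubted libraries this model called 28 members, against 18.9% of all genes called in either direction.

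By family, the share of tested genes called on 3 ppm was 66.7% in modulatory subunits, 40% in accessory subunits, 30.8% in inward rectifiers, 25% in calcium- or sodium-activated pores, 23.1% in two-pore channels and 14.3% in voltage-gated pores. The last of these is near the 12.4% of all genes.

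Accessory subunits held the largest single difference on 3 and 0.1 ppm over CpGs read at least 5 times, while on 30 ppm the modulatory subunit Kcng4 was above it. Of 15 tested accessory genes, 6 were called on 3 ppm, 3 on 0.1 ppm and 7 on 30 ppm without the doubted libraries, and the median difference on 3 ppm was 6.13 points. These counts are 40, 20 and 46.7%, against 12.4, 9.22 and 15.3% of all genes. Kcnab1 encodes a beta subunit that speeds the inactivation of Kv1 channels. Its level in the 4 WT embryos on 3 ppm was 42.4, 33.3, 33.1 and 42%. In the 5 KO embryos on 3 ppm it was 65.8, 67.3, 70.7, 71.4 and 73.4%. The KO embryos all lay far above the WT embryos, and the means of 37.7% ± 5.22 (SD, n = 4) and 69.7% ± 3.10 (SD, n = 5) differed by 32.0 points (adjusted p = 2.73e-05). This value rests on 20 CpGs, and with the 8 of them read at least 10 times in every embryo it was 16.9 points (adjusted p = 0.00106), below Kcng4 (29.9 points) and Kcne1 (26.0 points) under the same minimum. With 0.1 ppm the 2 WT embryos stood at 36.1 and 41.29% and the 5 KO embryos at 64.6, 72.1, 58.0, 56.4 and 72.4%, a difference of 26.0 points (adjusted p = 0.00641). Both WT embryos were below all KO embryos there. On 30 ppm the 3 WT embryos stood at 38.9, 54.9 and 40.14%, and the 6 KO embryos had a lowest level of 39.3%, a median of 62.7% and a highest of 65.5%. The WT embryo at 54.9% and the KO embryo at 39.3% are both libraries named above. The groups overlap only through the KO library, as the other 5 KO embryos had 62.3 to 65.5%. The difference of 14.9 points did not pass the test (adjusted p = 0.308), while without the doubted libraries it was 24.1 points (adjusted p = 9.53e-05).

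Kcne1 encodes a small membrane protein that slows the opening of voltage-gated channels, best known from heart and inner ear. Its 14 CpGs stood at 46.2, 44.9, 45 and 48.9% in WT embryos on 3 ppm. The KO embryos of this diet had 71.9, 70.4, 65.4, 69.2 and 72.7%. The groups did not overlap, and the difference was 23.6 points (adjusted p = 2.73e-05). The WT levels on 0.1 ppm of 44.5 and 52.1% lay below the KO levels of 65.0, 66.8, 69.2, 66.3 and 69.9%, with a difference of 19.2 points (adjusted p = 0.00411). On 30 ppm the difference was 13.8 points with all libraries (adjusted p = 0.178) and 20.4 points without the doubted libraries (adjusted p = 0.00045). The KO embryos on 30 ppm ran from 48.5 to 67.9%, with a median of 65.8%, and the WT embryos stood at 44.2, 56.5 and 47.1%. Of the channel-interacting KChIP proteins, which bind Kv4 channels, Kcnip1 (8.68 points) and Kcnip3 (5.23 points) were called on 3 ppm, and Kcnip2 was called on 0.1 ppm (10.3 points, adjusted p = 0.037) but in only 1 of 7 fits that each left out an embryo. Kcnmb1, a beta subunit of the large-conductance calcium-activated channel, was called on 3 ppm (18.6 points), but all of its 3 CpGs lie inside the neighbouring gene Kcnip1. The smallest difference among accessory genes on 3 ppm was that of Kcnmb3, another beta subunit of that channel, at 1.95 points (adjusted p = 0.377), and its WT level was already 88.4%.

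The modulatory Kv subunits, which make no channel on their own but join the pores of others, had 6 of 9 tested genes called on 3 ppm, 4 on 0.1 ppm and 5 on 30 ppm without the doubted libraries. The shares called were 66.7, 44.4 and 55.6%, against 12.4, 9.22 and 15.3% of all genes. The median difference in this family was 5.43 points on 3 ppm. Kcng4 showed the widest gap, with WT embryos at 56.3, 54.6, 55 and 50.53% on 3 ppm and KO embryos at 85.6, 79.1, 80.4, 82.0 and 79.6%. No KO embryo came near a WT embryo, and the difference was 27.2 points (adjusted p = 2.27e-06). On 0.1 ppm the WT embryos had 55 and 67.1% and the KO embryos 80.5, 79.7, 81.6, 83.0 and 80.7%, a difference of 20.1 points (adjusted p = 0.000902). The higher of these WT levels belonged to the doubted library, and it still lay below every KO embryo. On 30 ppm the WT embryos had 55.6, 64.8 and 52.3%, and the KO embryos ran from 63.2 to 83.6% with a median of 79.2%. The doubted KO library was the lowest of its group, below the doubted WT library, and the difference of 19.5 points rose to 25.9 points without the doubted libraries (adjusted p = 0.119 and 3.93e-05).

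Kcns1 encodes a silent subunit of sensory and other neurons. Its 64 CpGs stood at 15.5, 14.9, 15.4 and 14.5% in WT embryos on 3 ppm and at 36.24, 26.8, 32.7, 34.2 and 26.4% in KO embryos. The WT embryos lay close together while the KO embryos were spread, without overlap, and the difference was 16.2 points (adjusted p = 2.66e-05). It was 13 points on 0.1 ppm (adjusted p = 0.00402) and 15 points on 30 ppm without the doubted libraries (adjusted p = 6.18e-05). Kcng2 held the most CpGs of all members, 189, and rose from 10.3% ± 0.97 (SD, n = 4) to 18.9% ± 0.85 (SD, n = 5) on 3 ppm (adjusted p = 9.28e-06). On 0.1 ppm it rose from 11% ± 0.809 (SD, n = 2) to 21.4% ± 1.22 (SD, n = 5), with an adjusted p of 0.000102. Kcng1 was called on 3 ppm and 0.1 ppm with 8.77 and 9.01 points, while Kcns2 (5.43 points) and Kcnf1 (5.35 points) were called on 3 ppm and not on 0.1 ppm. Kcng3 differed least in this family, by 0.877 points (adjusted p = 0.974), with WT embryos at 7.52 to 12.7% and KO embryos at 8.62 to 13.4%.

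Among the 28 voltage-gated pore subunits, 4 were called on 3 ppm, 6 on 0.1 ppm and 6 on 30 ppm without the doubted libraries, and their median difference on 3 ppm was 2.98 points. As a share these are 14.3, 21.4 and 21.4%, against 12.4, 9.22 and 15.3% of all genes. Kcna5 encodes the pore Kv1.5, known for the repolarisation of atrial muscle. Its level was 7.68, 6.00, 7.36 and 7.64% in WT embryos on 3 ppm and 18.8, 25.1, 23.4, 23.1 and 26.7% in KO embryos. Every KO embryo was above every WT embryo, by 16.2 points on average (adjusted p = 1.37e-05). In the depleted group the WT embryos stood at 7.19 and 9.69% and the KO embryos at 25.4, 22.2, 24.6, 23.9 and 30.1%, a difference of 16.8 points (adjusted p = 0.00115). On 30 ppm the WT embryos had 6.52, 14.5 and 6.2%, and the KO embryos ran from 11.2 to 21.3% around a median of 18.6%. The groups overlapped through the doubted libraries, and the difference was 8.99 points with them (adjusted p = 0.136) and 13.1 points without them (adjusted p = 0.000251).

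Kcnc1, a pore of fast-spiking neurons, rose from 11.48% ± 0.972 (SD, n = 4) to 21.0% ± 2.41 (SD, n = 5) on 3 ppm over 160 CpGs (adjusted p = 3.71e-05), a difference of 9.48 points that was 6.16 points over 107 CpGs read at least 10 times (adjusted p = 3.31e-05). On 0.1 ppm its difference was 7.92 points (adjusted p = 0.00136). Kcna6, a Kv1 pore, was called on both diets with 10.2 points (adjusted p = 0.0368) and 9.40 points (adjusted p = 0.0403), and its groups overlapped on 3 ppm, with WT embryos at 23.2 to 40.0% and KO embryos at 37.2 to 49.6%. Neither call held for Kcna6 when the litter entered the model, where the differences were 8.45 points (adjusted p = 0.160) and 8.98 points (adjusted p = 0.156). Kcnh2, the HERG-type pore, was called on 0.1 ppm alone (6.05 points, adjusted p = 0.0283), and not with litter in the model (6.71 points, adjusted p = 0.0534). Within 3 ppm the smallest value of the family was that of Kcnc2, -2.41 points (adjusted p = 0.522), with KO embryos at 43.9 to 55.1% and WT embryos at 46.3 to 56.1%.

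Of 13 tested inward rectifiers, 4 were called on 3 ppm, 3 on 0.1 ppm and 4 on 30 ppm without the doubted libraries, and the median difference was 2.16 points on 3 ppm. These counts are 30.8, 23.1 and 30.8%, against 12.4, 9.22 and 15.3% of all genes. Kcnj11 encodes the pore of the ATP-sensitive channel that couples metabolism to membrane voltage. Its 10 CpGs stood at 55.9, 50.48, 59.0 and 59.0% in WT embryos on 3 ppm and at 75.9, 71.5, 70.0, 74.0 and 70.2% in KO embryos. The groups were apart, by 16.2 points (adjusted p = 0.000917). The WT embryos on 0.1 ppm had 49.4 and 58.7% and the KO embryos 70.2, 75.3, 75.1, 78.6 and 72.9%, a difference of 20.3 points (adjusted p = 0.00686). It was 8.62 points on 30 ppm with all libraries (adjusted p = 0.324) and 14.0 points without the doubted ones (adjusted p = 0.0132). Kcnj10, the main rectifier of glia, was called on 3 ppm (10.4 points) and on 30 ppm without the doubted libraries (12.6 points). Kcnj6, a G-protein-gated rectifier, was called on 3 ppm (7.49 points) and 0.1 ppm (6.97 points).

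Kcnj9, also G-protein-gated, was called on 3 ppm with 17.1 points (adjusted p = 0.00463) and on 0.1 ppm with 18.4 points (adjusted p = 0.00998). Of its 31 CpGs, however, 17 (54.84%) lie in the body of the neighbouring gene Igsf8. With the 14 CpGs of the Kcnj9 gene body alone the differences were 9.14 points (adjusted p = 0.0937) and 9.29 points (adjusted p = 0.387), and neither passed the test. Over the 3 CpGs read at least 10 times both calls were lost as well, with 9.59 points (adjusted p = 0.193) and 14.35 points (adjusted p = 0.138). In all, 14 members had a shared CpG inside another protein-coding gene, and in 2 of them, Kcnj9 and Kcnmb1, most of the CpGs lay there. Kcnj16, with only 3 CpGs, gave the lowest difference on 3 ppm of all tested members, -3.0 points (adjusted p = 0.975), with overlapping groups at 43.66% ± 3.65 (SD, n = 4) in WT and 40.7% ± 5.90 (SD, n = 5) in KO embryos.

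The two-pore channels, which carry background potassium current, had 3 of 13 tested genes called on 3 ppm and 2 each on 0.1 ppm and on 30 ppm without the doubted libraries. The shares called were 23.1, 15.4 and 15.4%, against 12.4, 9.22 and 15.3% of all genes, so that the last is near that of all genes. Their median difference on 3 ppm was 4.04 points. Kcnk4 encodes TRAAK, a pore opened by stretch and by lipids. Its level was 4.02, 4.01, 3.46 and 3.5% in WT embryos on 3 ppm and 11.3, 11.1, 12.6, 13.3 and 10.2% in KO embryos. The levels were low in both groups, yet no embryo of one group reached the other, and the difference of 7.94 points had an adjusted p of 3.47e-06. Of the Kcnk4 CpGs, 33.0% lie inside the neighbouring gene Catsperz, and 25 of these 31 are also in the body of Kcnk4. Over the 63 CpGs outside Catsperz the WT embryos had 3.61% ± 0.371 (SD, n = 4) and the KO embryos 11.6% ± 1.42 (SD, n = 5) on 3 ppm, a difference of 7.99 points, with no KO embryo under 9.14% and no WT embryo over 3.99%. On 0.1 ppm the difference was 7.10 points (adjusted p = 0.000418). Kcnk15 was called on the same diets with 7.24 and 7.64 points, and Kcnk6 on 3 ppm with 5.35 points. Kcnk1 differed by -0.406 points (adjusted p = 0.846), with WT embryos at 4.77 to 6.89% and KO embryos at 4.22 to 6.60%.

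The 8 pores grouped by symbol as calcium- or sodium-activated include Kcnu1, the SLO3 pore, which is opened by voltage and alkaline pH instead. Kcnn4 and Kcnn3 were called on 3 ppm, Kcnn4 on 0.1 ppm, and these 2 with Kcnu1 on 30 ppm without the doubted libraries. The shares called were 25, 12.5 and 37.5%, against 12.4, 9.22 and 15.3% of all genes. That on 0.1 ppm is a single gene and near the share of all genes. Kcnn4, the intermediate-conductance pore of blood and epithelial cells, stood at 23.7, 25.1, 25.7 and 20.7% in WT embryos on 3 ppm. In KO embryos it stood at 39.6, 41.16, 40.15, 36.28 and 34.2%. The difference without overlap was 14.5 points (adjusted p = 5.28e-05). On 0.1 ppm it was 11.6 points (adjusted p = 0.00599), which fell short of the threshold with litter in the model (11.4 points, adjusted p = 0.0514). Kcnn3, a small-conductance pore of neurons, rose by 14.3 points on 3 ppm (adjusted p = 9.66e-06). Kcnn1, of the same subfamily, differed by 0.66 points (adjusted p = 0.827), with WT embryos at 21.2 to 23.5% and KO embryos at 21.0 to 25.1%.

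**Figure D2:**
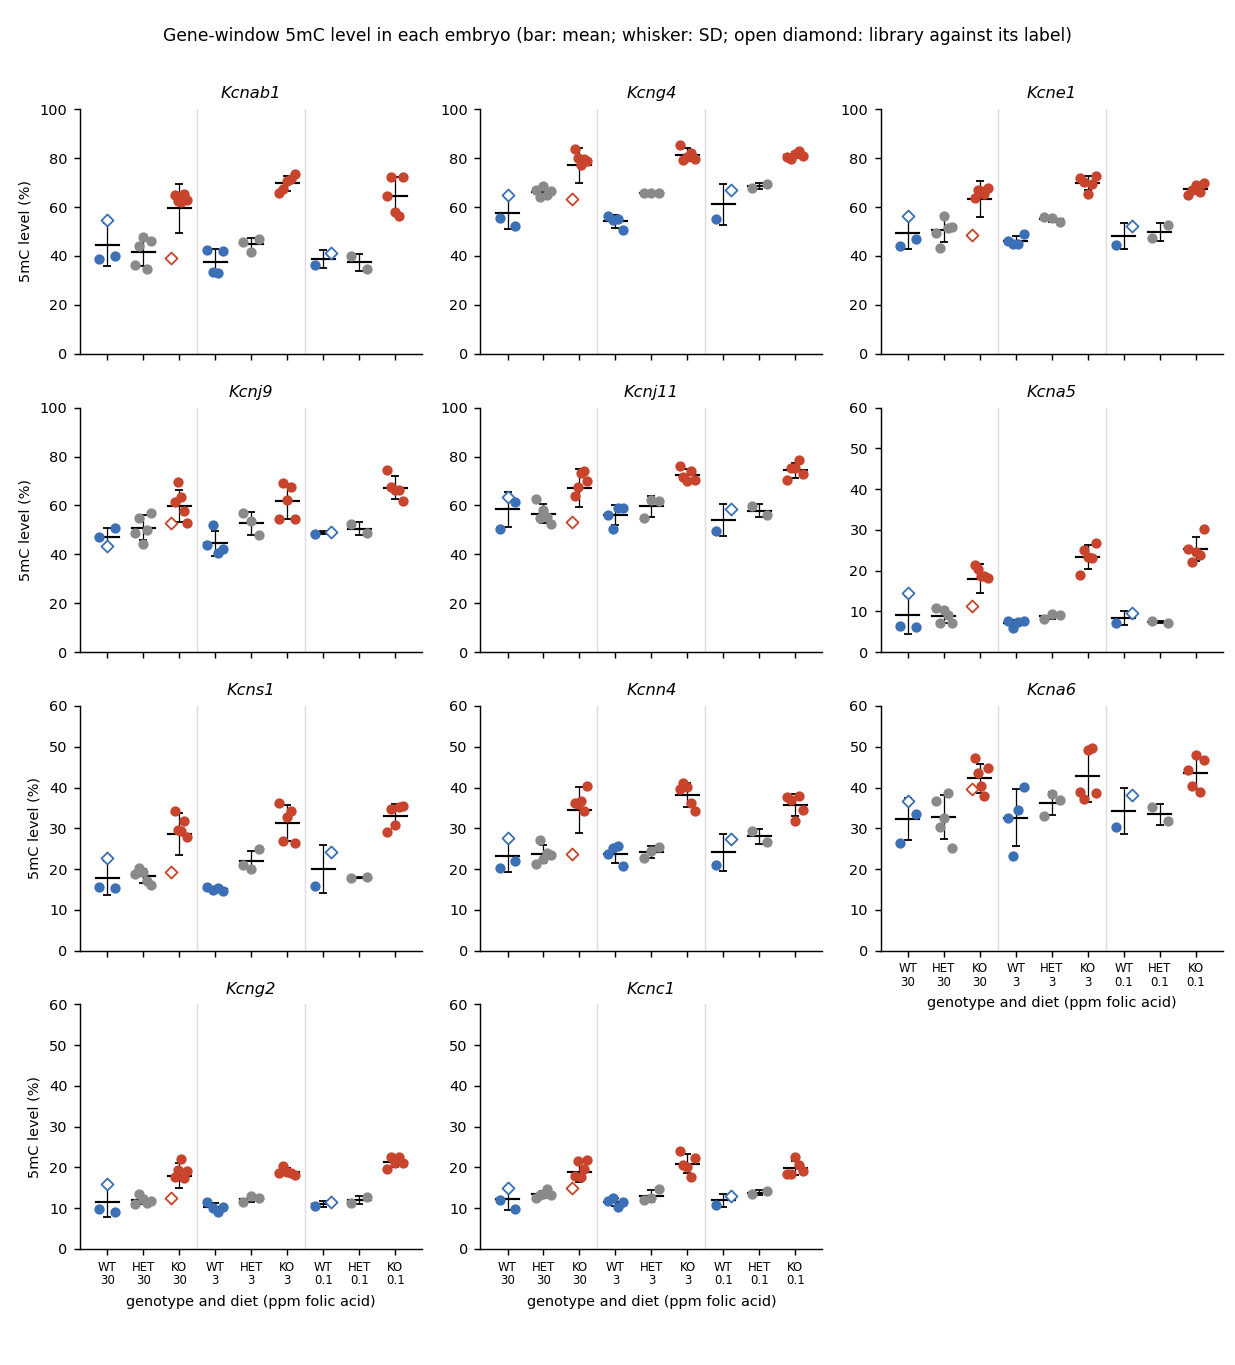
Methylation level in percent in each embryo for 11 of the 12 potassium channel genes with the largest mean differences among those called on at least 2 diets, by genotype and diet. Bars are group means, whiskers the SD, and open diamonds the 3 doubted libraries. In Kcnab1 on 3 ppm the KO embryos sit between 65.8 and 73.4% and the WT embryos between 33.1 and 42.4%.

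Members were also counted by their level in WT embryos. On 3 ppm, 39 tested members had a WT mean under 20%, of which 10 were called, 39 had a WT mean of 20 to 80%, of which 15 were called, and 8 had a WT mean over 80%, of which none was called. Over all genes in these classes, 7.27, 21.2 and 8.72% were called. The median level of the 86 members was 22.9% in WT, 24.4% in HET and 28.0% in KO embryos on this diet.

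For comparison, 43 sodium, calcium and HCN channel genes, fixed as a list with the earlier results of the whole series known, were all tested. Of these, 13 were called higher in KO on 3 ppm (30.2%, against 12.4% of all genes) and 11 on 0.1 ppm (25.6%, against 9.22%). On 30 ppm none was called with all libraries (0.00616% of all genes), and 11 were called without the doubted libraries (25.6%, against 15.3%). Their median differences were 3.34 points on 3 ppm and 4.27 points on 0.1 ppm. No test of a difference between these genes and the potassium channel genes was made.

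Position within the genes was then examined. The genome was cut into 1 kb tiles with at least 3 CpGs, and a tile was called with an adjusted p below 0.05 and at least 10 points. Of the tiles that fell in potassium channel genes, 76 of 297 were higher in KO on 3 ppm, against 16.3% of all tiles tested. On 0.1 ppm 66 of 332 were higher, against 11.2% of all tiles, and on 30 ppm 35 of 304 were higher, against 5.66%. Without the doubted libraries 82 tiles were higher on 30 ppm, against 16% of all tiles. No member tile was lower in any of these fits. A called tile was present in 41 of the 81 member genes with a tested tile on 3 ppm, in 38 of 79 on 0.1 ppm and in 28 of 83 on 30 ppm. As shares of genes with a tested tile these are 50.6, 48.1 and 33.7%, against 36.73, 29.0 and 17.7% over all genes.

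Tiles at promoters, taken as 1 kb on each side of a transcript start, were called in 26 of 62 cases on 3 ppm, exon tiles in 27 of 91, intron tiles in 20 of 127 and flanking tiles in 3 of 17. Over all genes on 3 ppm, 30.4% of promoter, 16.4% of exon, 14.1% of intron and 21% of flanking tiles were called. On 0.1 ppm the counts were 23 of 73, 21 of 94, 17 of 146 and 5 of 19, against 22.8, 12, 9.13 and 14.5% over all genes. The shares over all genes count a tile for each gene it falls in and take exons from every transcript. Member tiles were counted without repeats, with exons of protein-coding transcripts only. The called member tiles on 3 ppm held a median of 28 CpGs per kb in the reference sequence, against 19 in the member tiles not called. Tiles whose mean over KO and WT lay between 20 and 80% were called in 58.1% of cases for members and 45.79% for all tested tiles on 3 ppm. On 0.1 ppm these shares were 45.78% and 29.3%. Promoters alone, tested gene by gene, gave 17 of 74 members on 3 ppm (9.08% of all genes), 13 on 0.1 ppm (7.18% of all genes) and 5 on 30 ppm with all libraries (2.06% of all genes), all higher in KO.

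On all 3 diets, with every library kept, 26 of 217 member tiles tested on each diet were called higher (12%), in 22 potassium channel genes, against 5.72% of all such tiles. Of the 26, 11 were promoter tiles, 8 exon, 5 intron and 2 flanking. Each of these counts rests on WT replicate 1 of 30 ppm, since without it no member tile was called on that diet by the model on reads, where 78 had an unadjusted p under 0.05. In 6 of the 26 (23.1%) no KO embryo overlapped a WT embryo on any diet, against 28% of all tiles called on the 3 diets, and tiles chosen as called favour such separation. For 7 of the 8 genes whose tiles had the largest mean difference, a stretch of CpGs shared by all 35 embryos is shown. Within each tile it is the run of at most 300 bases with the most such CpGs outside untranslated regions. It was not picked by its own difference. In Kcne1 it holds 3 of the 6 shared CpGs of the tile, and in Kcng4 16 of 23. The sequences come from the RefSeq genome GRCm38.p6 and are written on the + strand. CpGs that were measured in all embryos are in capitals. Kcnab1 is on the + strand, Igsf8, the gene under the Kcnj9 stretch, is also on the + strand, and the other 5 genes are on the - strand.
Kcnab1, chr3:65109804-65109977, first coding exon: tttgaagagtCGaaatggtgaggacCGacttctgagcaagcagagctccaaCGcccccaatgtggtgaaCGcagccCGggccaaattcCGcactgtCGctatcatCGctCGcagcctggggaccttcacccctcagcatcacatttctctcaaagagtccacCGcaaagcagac
Kcna5, chr6:126534546-126534638, coding exon: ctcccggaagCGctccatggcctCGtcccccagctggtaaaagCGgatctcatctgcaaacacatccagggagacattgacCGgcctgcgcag
Kcnip3, chr2:127484406-127484460, intron: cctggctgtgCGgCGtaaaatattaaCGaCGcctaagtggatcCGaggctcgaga
Kcng4, chr8:119633211-119633444, coding exon: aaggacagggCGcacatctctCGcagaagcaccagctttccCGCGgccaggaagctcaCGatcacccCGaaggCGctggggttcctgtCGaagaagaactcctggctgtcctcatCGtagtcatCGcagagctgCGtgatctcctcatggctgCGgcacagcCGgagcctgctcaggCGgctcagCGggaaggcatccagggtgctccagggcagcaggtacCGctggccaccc
Kcnj4, chr15:79493632-79493673, intron: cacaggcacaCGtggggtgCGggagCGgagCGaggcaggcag
Kcnj9, chr1:172318525-172318783, over a coding exon of Igsf8: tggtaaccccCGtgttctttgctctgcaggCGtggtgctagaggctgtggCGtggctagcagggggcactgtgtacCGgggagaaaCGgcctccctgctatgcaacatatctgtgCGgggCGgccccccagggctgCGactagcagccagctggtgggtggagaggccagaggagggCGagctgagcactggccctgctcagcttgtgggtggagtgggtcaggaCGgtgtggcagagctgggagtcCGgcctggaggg
Kcne1, chr16:92359047-92359173, first intron next to the start: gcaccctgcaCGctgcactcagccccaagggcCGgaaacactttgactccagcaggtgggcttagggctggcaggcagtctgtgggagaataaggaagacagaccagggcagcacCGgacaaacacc

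The Kcnab1 stretch of 10 CpGs went from almost no methylation in WT to a mean of 49.2% ± 4.46 (SD, n = 5) in KO embryos on 3 ppm. On 3 ppm the WT embryos stood at 2.83, 1.36, 2.14 and 2.26% and the KO embryos at 46.1, 43.5, 52.4, 49.7 and 54.4%. The KO and WT groups were far apart. The HET embryos, at 4.20, 1.72 and 5.69%, lay near the WT embryos, with 4.20 and 5.69% above every WT embryo. On 0.1 ppm the WT embryos had 2.45 and 2.95% and the KO embryos 45.1, 55.4, 35.5, 35.9 and 55.3%. On 30 ppm the KO embryos ran from 3.31 to 48.3% with a median of 41.21%, the lowest being the doubted library, and the WT embryos had 2.45, 16.2 and 3.90%. On 3 ppm the 10 CpGs differed by 36.1 to 59.1 points one by one, so that no measured CpG of the stretch was left out of the rise. The tile that holds it differed by 40.47 points on 3 ppm (adjusted p = 5.30e-18), 36.67 points on 0.1 ppm (adjusted p = 2.93e-10) and 27.6 points on 30 ppm (adjusted p = 0.0202). Another annotated transcript, AC113458.1, overlaps the same strand here.

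In Kcna5 the 4 CpGs of the stretch rose from 11, 8.37, 7.14 and 11.7% in WT to 53.8, 64.9, 53.2, 61.2 and 61.4% in KO embryos on 3 ppm. The whole gene reached at most 26.7% in a KO embryo of this diet, while this stretch had at least 53.2%, and the HET embryos had 17, 17.6 and 12.9%. Its tile differed by 49.3, 41.5 and 32.2 points on 3, 0.1 and 30 ppm (adjusted p = 9.29e-18, 6.89e-09 and 0.00978).

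Kcnip3 behaved in the same way inside an intron. The 5 CpGs stood at 12.9, 8.75, 8.00 and 11.8% in WT and 52.0, 50, 47.3, 66.7 and 50% in KO embryos on 3 ppm, and the tile differed by 42.8 points (adjusted p = 3.98e-11). The Kcnj4 stretch lies in an intron of a gene that was not called on any diet, since its 100 CpGs together differed by only 2.16 points on 3 ppm (adjusted p = 0.682). There the WT embryos had 36.64, 44.7, 53.9 and 31.5% and the KO embryos 74.0, 72.2, 76.0, 77.6 and 70.7%, and the tile of 4 CpGs differed by 32.4 points (adjusted p = 5.74e-09).

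The Kcng4 stretch of 16 CpGs rose from 38.5, 40.17, 44.2 and 36% in WT to 87.3, 71.4, 77.1, 77.8 and 76.2% in KO embryos on 3 ppm, with HET embryos at 46.2, 50 and 56.3%. Each of the 3 groups was apart from the next in this stretch. The tile differed by 39.0 points (adjusted p = 8.36e-17). The Kcne1 stretch of 3 CpGs next to the gene start had 31.2, 40.28, 35.9 and 34.9% in WT, 39, 49.1 and 52.9% in HET and 78.2, 76.8, 72.0, 75.6 and 80.0% in KO embryos on 3 ppm. The highest WT embryo overlapped the lowest HET embryo, while the KO embryos were apart, and the tile differed by 38.29 points (adjusted p = 7.03e-14). The stretch counted for Kcnj9 had 46.4, 49.8, 32.7 and 41.5% in WT and 63.0, 83.5, 80.0, 78.4 and 72.5% in KO embryos. The tile differed by 35.3 points (adjusted p = 1.37e-15), and it belongs to Igsf8 by position.

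**Figure D3:**
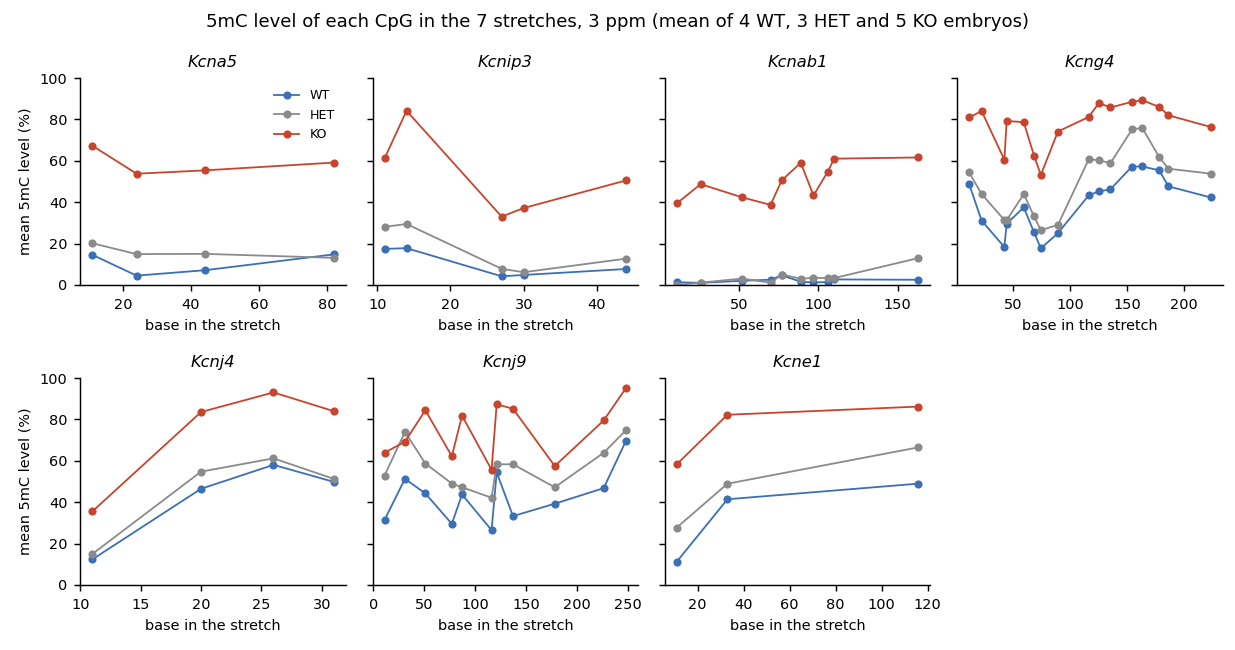
Mean methylation level in percent of each measured CpG of the 7 stretches, by its base in the stretch, for WT, HET and KO embryos on 3 ppm. In Kcnab1 no CpG has a WT mean over 4.64% and none has a KO mean under 38.67%.

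Averaged by distance from the gene start, the CpGs of the potassium channel genes differed by few points at the start itself, where levels were low. They differed by more points further into the gene. From 0 to 250 bases after the start the KO minus WT difference on 3 ppm was 1.56 points in the members and 0.524 points in all genes. The members stood there at 1.71% in WT and 3.28% in KO embryos. Before the start, the bin from 2000 to 1500 bases gave 8.30 points in the members, over 16 CpGs in 7 genes, and 3.25 points in all genes. The bin from 1500 to 1000 bases before it gave 1.59 and 3.14 points. From 1500 to 2000 bases after the start it was 13.8 points in the members, over 147 CpGs in 12 genes, and 3.5 points in all genes. From 2000 to 3000 bases it was 15.7 points, over 147 CpGs in 20 genes, against 3.83 points. On 0.1 ppm these bins gave 12 and 13.2 points in the members, and on 30 ppm 10.0 and 10.6 points with all libraries. From 3000 to 5000 bases the members differed by 4.30 points on 3 ppm and all genes by 3.89 points. These are descriptions with no test, and the far bins rest on few genes.

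**Figure D4:**
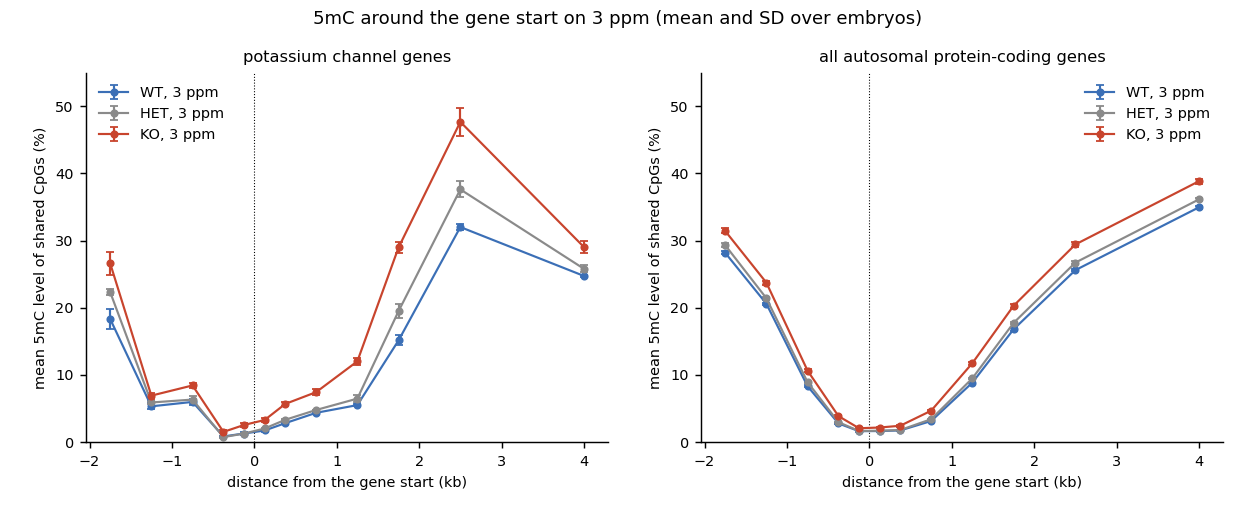
Mean methylation level in percent of the shared CpGs by distance from the gene start in kb, for WT, HET and KO embryos on 3 ppm, in potassium channel genes on the left and in all autosomal protein-coding genes on the right. Points are means and bars the SD over embryos. At 2000 to 3000 bases the members stand at 32.0% in WT and 47.7% in KO embryos.

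HET embryos were compared with WT embryos to ask whether the loss of 1 allele changes methylation. No potassium channel gene was called on any diet, and over all genes 0, 1 and 0 were called on 30, 3 and 0.1 ppm (0, 0.00616 and 0%). At an unadjusted p under 0.05 there were 2, 6 and 9 members (2.33, 6.98 and 10.47%), against 1.87, 3.82 and 7.26% of all genes. Leaving out 1 library moved these counts to as many as 16 on 30 ppm (without the doubted WT replicate 2, and 10 without WT replicate 1), to 13 on 3 ppm (without WT replicate 1), and to 0 or 13 on 0.1 ppm (without HET replicate 3 or WT replicate 1). The 16 members are 18.6%, against 12.1% of all genes in that fit. No share over all genes is given for the other counts without 1 library. The median difference on 30 ppm was 2.32 points without the doubted WT replicate 2, against 0.665 points with all libraries. This median was below 0 without WT replicate 3 and with litter in the model. limma on equally weighted CpGs called 2 members on 3 ppm (0.271% of all genes), Kcns1 with 5.23 points (adjusted p = 0.0494) and Kcng4 with 9.91 points (adjusted p = 0.0378), and none on the other diets. In these equal-weight fits 3, 40 and 11 members had an unadjusted p under 0.05 on 30, 3 and 0.1 ppm. These are 3.49, 46.5 and 12.8%, against 4.62, 20.3 and 7.20% of all genes. On 3 ppm 71 of 86 members (82.6%) had a HET mean above the WT mean, against 69.7% of all genes. The median difference over the members was 1.49 points, against 0.559 points over all genes. In the model on reads, Kcng4 HET embryos on 3 ppm had 65.7, 65.9 and 65.8%, above every WT and below every KO embryo, but the difference from WT of 11.7 points did not pass the adjustment (adjusted p = 0.318). Of the 25 members called between KO and WT on 3 ppm, the HET mean lay between the WT and KO means in 25, with a median of 2.60 points above WT against 10.2 points for KO. On 0.1 ppm it lay between them in 15 of 19 called members and at or below WT in the other 4. On 30 ppm it did so in 25 of the 27 members called without the doubted libraries, with means that also leave these libraries out, and in 21 of the 27 with means over all libraries. These 3 counts use the calls between KO and WT to choose the members and carry no test.

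Diet was compared within each genotype. Each litter belonged to 1 diet, so no litter term could be fitted and diet cannot be told apart from litter. Littermates were counted as separate embryos. No member and no other gene was called between 30 and 3 ppm or between 0.1 and 3 ppm in WT, HET or KO embryos (0% of all genes in each comparison). With 30 against 3 ppm, 1 member in WT, 1 in HET and 6 in KO embryos had an unadjusted p under 0.05, and with 0.1 against 3 ppm these counts were 4, 2 and 4. Over all genes the shares were 0.462, 3.58 and 5.87% for the first comparison and 3.56, 3.46 and 4.76% for the other. Leaving out 1 embryo at a time gave 0 to 3 members in WT, 1 to 5 in HET and 5 to 10 in KO for the first comparison, and 1 to 8, 0 to 5 and 3 to 9 for the other. The highest counts in KO came without replicate 4 of 3 ppm and without replicate 5 of 0.1 ppm. No share over all genes is given for the fits without 1 embryo. The KO minus WT difference itself also gave no call between diets. In this interaction 3 members for 30 against 3 ppm and 1 for 0.1 against 3 ppm had an unadjusted p under 0.05 (2.98 and 3.67% of all genes), with median changes in the difference of -1.36 and -0.506 points, against -0.543 and -0.0958 over all genes. Without the doubted libraries these medians were 0.215 and -0.035 points, against 0.264 and 0.204 over all genes, and again no member was called. Kcnab1 is an example, where the difference was 17.1 points smaller on 30 than on 3 ppm with all libraries kept (adjusted p = 1 when rounded). Without the doubted libraries it was 7.91 points smaller (adjusted p = 0.981). A result that misses the threshold here does not show that diets act alike.

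**Figure D5:**
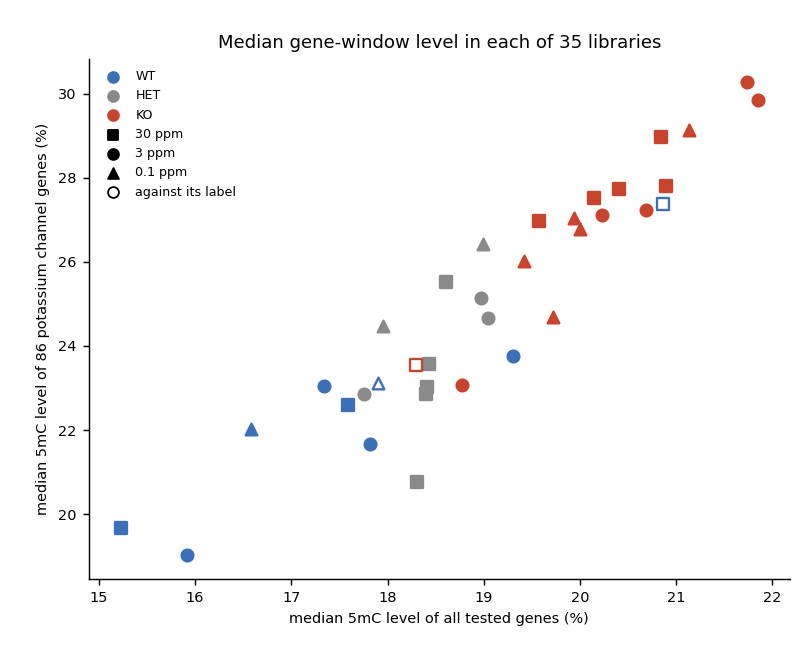
Median methylation level in percent of the 86 tested potassium channel genes against that of all tested genes, 1 point for each of the 35 libraries, with colour for genotype, shape for diet and open points for the doubted libraries. The members' medians run from 19 to 30.3%, with WT replicate 2 of 30 ppm at 27.4% above KO replicate 1 of the same diet at 23.6%.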

How the data were processed

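Per the labels and the study's methods, the authors digested brain DNA with MspI and TaqI, applied oxidative bisulfite conversion, trimmed reads with Trim Galore 0.6.10, aligned them to mm10 with Bismark 0.24.1 and removed duplicates with UMI-tools. The deposited table of each library gives for each CpG the methylated fraction and the read count. How the strands of a CpG were joined is not given in the sources used here. The deposited positions count from 0, and adding 1 gave a CG in GRCm38 at all 3204296 autosomal CpGs. The 9 deposited lists of differentially methylated regions hold the authors' own comparisons and were not used.

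Fraction and read count were multiplied back to methylated reads, CpGs under 5 reads were dropped, and reads were summed over the CpGs shared by all 35 embryos in each gene with 2 kb on each side (921363 CpGs). HET replicate 2 on 0.1 ppm was left out, as in the study. Levels were tested by a quasi-binomial logistic model whose dispersion was moderated with limma 3.58.1 (squeezeVar, floor of 1) in R 4.3.3, by a two-sided F test, with Benjamini-Hochberg adjustment over all genes. Tiles of 1 kb needed at least 3 CpGs read 5 times or more in every embryo of the comparison and an SD of at least 2 points. A difference is that of the mean embryo levels. Tables and figures used Python 3.11.15, pandas 2.3.3, pysam 0.24.0 and matplotlib 3.10.9. KO against WT on 3 ppm was also run on simulated data. Over 16223 genes, 81 of 100 raised by 10 points and 96 of 100 raised by 20 points were called. Over 91945 tiles these counts were 21 and 93 of 100, with 12 false calls among the tiles left as they were. Only features of intermediate level were raised, and embryos were drawn independently with the dispersion of the model itself. The SD minimum was not applied to tiles there. The other comparisons were not simulated, so these shares hold for this setting alone.

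The members, families and lists were chosen with earlier results of these data known. The text names the 12 members with the largest mean difference over the diets among those called on at least 2 diets, the largest and smallest of each family on 3 ppm, called members of the other comparisons, and 8 tiles called on all diets, at most 1 per gene. Values of 2 tested members that these totals count are not reported here, which leaves 11 of the 12 members and 7 of the 8 tiles. Members named beyond these were chosen after their values were seen. Litter, taken from the labels, entered only as an alternative. The correlation of deviations was over 0.1 in 13 of 35 pairs of embryos from 1 litter (median 0.0451) and in 21 of 99 pairs from different litters of a diet (median -0.0162). Embryos are separate animals, and 59 pairs of replicates all differed by more than sampling noise. Duplicate reads were removed by the authors with unique molecular identifiers, and depth limits the precision of low-coverage genes.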

Additional observations from a re-analysis of the deposited data

Results flagged for a closer look

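In 5 of 60 groups of 4 to 6 embryos tested for a sample far from the rest, the library labelled KO replicate 1 of 30 ppm lay far below the other 5 KO embryos of its diet. Its level was 39.3% in Kcnab1, where the others had 62.3 to 65.5%. In Kcng4 it was 63.2%, where the others had 77.3 to 83.6%. In Kcne1 it was 48.5% against 63.8 to 67.9%, in Kcna5 11.2% against 18.1 to 21.3%, and in Kcnn4 23.8% against 34.34 to 40.33%. Chance flags about 1 in 20 groups, and these groups share 1 library. The same library stood at 45% at the Tet1 CpG, below the 69.6 to 100% of the other KO libraries, and its part in these gaps was not tested. The sample list of the study gives this embryo as HET, against its deposited label.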

How the results depend on the processing

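Counts below are of potassium channel genes or tiles called higher in KO than WT, none was called lower in any setting, and no called difference changed sign. Where no share of all genes or tiles is given for a setting, its count describes the members alone and is not set against a background. Among comparisons without calls, the median over members changed sign for the change of the KO effect from 3 to 30 ppm (-1.36 to 0.215 points without the doubted libraries), 30 against 3 ppm in WT (0.764 to -0.612 without WT replicate 2 of 30 ppm), 0.1 against 3 ppm in WT (0.29 to -0.0635 without WT replicate 2 of 0.1 ppm), HET against WT on 30 ppm (0.665 to -0.138 with the litter block and -0.247 without WT replicate 3), 30 against 3 ppm in HET (-0.111 to 0.028 at 10 reads) and 0.1 against 3 ppm in HET (0.0792 to -0.254 and -0.442 without HET replicate 1 of 3 ppm and replicate 3 of 0.1 ppm). Genes on 30 ppm went from 0 to 5 with promoters alone, 16 with all groups sharing 1 dispersion, 15 with KO replicate 1 counted as HET and 27 without the doubted libraries, with 0 to 15 when each embryo was left out in turn. Genes on 3 ppm went from 25 to 13 with a minimum of 10 points, and to 22 to 26 leaving out each embryo. Genes on 0.1 ppm went from 19 to 10 with that minimum and to 9 to 21 leaving out each embryo, the 9 being without WT replicate 1, where the only WT embryo left is the doubted library. Over all diets, 23 became 41 with no minimum, 10 with 10 points and 14 with promoters alone. Tiles on 30 ppm went from 35 to 13 with a minimum of 20 points, 65 with KO replicate 1 counted as HET and 82 without the doubted libraries, and to 0 to 65 leaving out each embryo, the 0 being without WT replicate 1, when 78 tiles had an unadjusted p under 0.05. On 30 ppm tiles fell to 22 and 23 without KO replicate 5 and WT replicate 3. Tiles on 3 ppm went from 76 to 31 at 20 points and 74 to 80 leaving out each embryo, and on 0.1 ppm from 66 to 28 and to 36 to 78, the 36 again without WT replicate 1. HET against WT on 3 ppm went from 0 to 2 with equally weighted CpGs. The promoter setting, and a setting with only embryos scored as normal (0, 25 and 25 genes on 30 ppm, 3 ppm and all diets), were chosen after seeing the data. On 0.1 ppm the normal setting leaves 1 WT embryo, and its count is not given.

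With litter as a replicate block, 0, 28, 17 and 24 genes were called on 30, 3, 0.1 ppm and all diets, and 37, 79 and 50 tiles on 30, 3 and 0.1 ppm. Shares over all genes and all tiles are not given for these fits, so the counts describe the members alone. The block also ended the call of Kcne4 on 3 ppm (11.51 points, adjusted p = 0.0510) and added, among others, Kcnh1, Kcnd3, Kcnab3 and Kcnip2 on 3 ppm and Kcnh5 on 0.1 ppm. The block for HET against WT on 0.1 ppm could not be fitted, as no residual degrees of freedom were left. Of the calls, 19 of 25 on 3 ppm and 8 of 19 on 0.1 ppm held in every fit without 1 embryo. Only 2 WT embryos on 0.1 ppm, and few CpGs in genes such as Kcnj16, limit what depth can show.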
